A study of Rattus norvegicus with 24 samples.

Results

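The comparison is of liver RNA from female Sprague-Dawley rats gavaged with TCDD at 0.1 µg/kg (3 libraries) with that of rats gavaged with the sesame oil vehicle alone (3 libraries), which together are 6 of the 24 libraries of the series. Both groups were chosen by the dose label. All rats received a dose at intervals of 4 days, and day 28 was the day of liver collection; the label gives an age of 57 days for every animal without saying at which point of the study. No transgene or deletion is described, Sprague-Dawley is an outbred stock, and the series describes the 3 libraries of a group as biological replicates. The other 18 libraries are 3 each at 0.01, 0.03, 0.3, 1, 3 and 10 µg/kg of the same compound by the same schedule. They are used here to read the genes of this comparison in libraries outside it.

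TCDD is a chlorinated dioxin that binds the aryl hydrocarbon receptor, a transcription factor held in the cytosol until a ligand enters. The bound receptor moves to the nucleus, pairs with the protein ARNT and activates genes that carry dioxin response elements. In liver it is known for switching on enzymes that oxidise and conjugate foreign compounds, together with genes that feed back on the receptor. The title of the series places the study in hepatic fatty acid and eicosanoid metabolism, and the comparison asks which liver genes had changed at a dose in the middle of the range.

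Genes are given by Ensembl ID. Of the 26404 IDs in the count tables, 0 could be paired with a gene name from the sources used here, so no ID was identified with certainty, and neither gene function, cell type markers (those of hepatocytes included) nor promoter sequence is given. In whole-liver RNA, fewer cells of a type and less RNA per cell cannot be told apart.

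The 6 libraries held 11866339 to 13522274 gene counts. Alignments that were not unique made up 23.4% to 24.9% in vehicle and 23.2% to 24.4% at 0.1 µg/kg, and the means of 24.1% and 23.7% did not differ beyond the spread (exact two-sided permutation p = 0.60, where 3 against 3 cannot go below 0.10).

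At 0.1 µg/kg the liver response was made up mostly of rises, and most of these were of less than 4-fold. Of 12496 genes tested, 109 rose and 6 fell (0.872% and 0.048% of the genes tested; edgeR quasi-likelihood test, adjusted p below 0.05). The rises had a median log2 fold change of 1.14, the falls one of -0.74 and all genes tested one of -0.02. Rises of at least 2-fold numbered 69, of at least 4-fold 13, of at least 8-fold 6 and of at least 16-fold 3. The quartiles of the rises were log2 fold changes of 0.87 and 1.51. Of the 6 falls, 1 was of at least 2-fold.

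**Figure D1:**
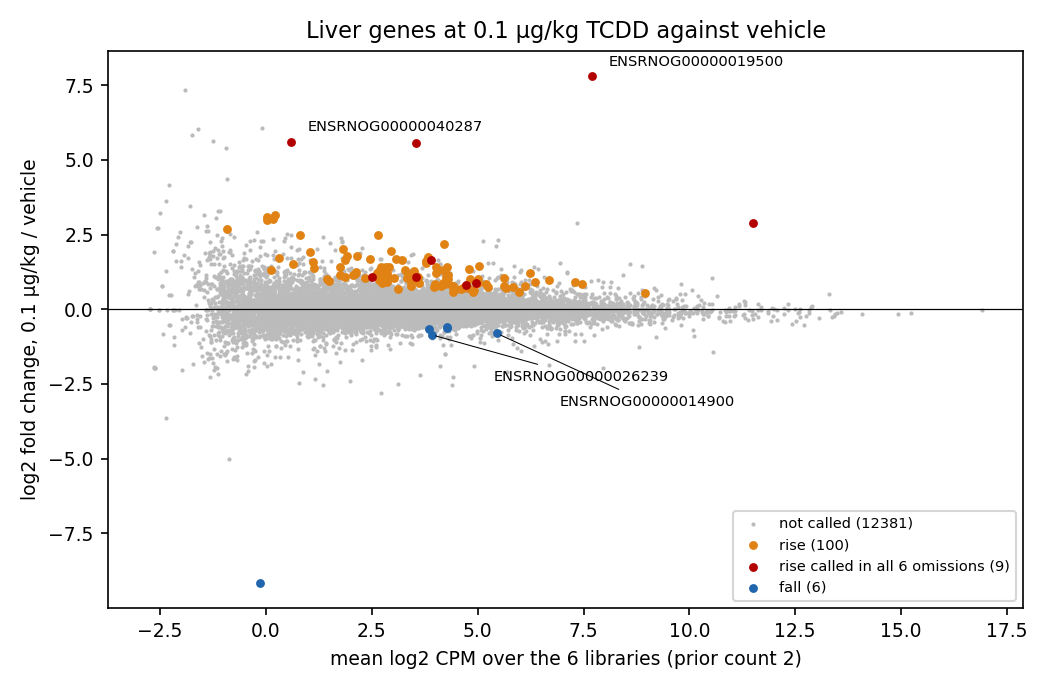
Each point is 1 of 12496 genes, with its mean log2 CPM (read counts scaled to a common library total) over the 6 libraries on the x axis and its log2 fold change at 0.1 µg/kg against vehicle on the y axis. Called rises are orange, or red where they were called in each of the 6 fits that left out 1 library, and called falls are blue; 3 rises stand above a log2 fold change of 4, while most lie near 1.

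The rises were mostly genes of low to moderate read counts. Their median vehicle level was 7.67 CPM, against 10.4 CPM over all genes tested, and their median at 0.1 µg/kg was 16.5 CPM. In vehicle, 11 rises lay below 1 CPM, 53 between 1 and 10 CPM, 41 between 10 and 100 CPM and 4 at 100 CPM or more. The shares of all genes tested in these ranges were not counted. The rises were chosen partly for low values in these vehicle libraries, which tilts their vehicle levels downwards. No rise was without a count in all 3 vehicle libraries, but 2 held fewer counts there than a mean of 3 per library. CPM is not scaled by gene length, so these levels are set beside each other as read counts and not as amounts of transcript.

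The libraries of the groups did not overlap for any of the 109 rises, and for 5 of the 6 falls. Over all genes tested, the 3 libraries at 0.1 µg/kg lay above the 3 vehicle libraries for 9.8% of genes and below them for 7.29%, or 17.1% in all. The balance at an unadjusted p below 0.05 was less one-sided than among the calls, with 1031 genes higher and 605 lower.

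ENSRNOG00000019500 showed the largest rise. It held 19.1, 11.4 and 11.5 CPM in the vehicle libraries and 3523, 3269 and 2591 CPM at 0.1 µg/kg. All 3 treated libraries lay far above every vehicle library. The means were 14.0 ± 4.39 and 3128 ± 481 CPM (SD, n = 3), a log2 fold change of 7.80 (SE 0.576; edgeR adjusted p = 1.37e-07). The vehicle libraries rested on 247, 142 and 136 counts, so the gene was detected without TCDD.

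ENSRNOG00000040287 showed the second largest rise and was near silent in vehicle. Each vehicle library held 2 counts (0.154, 0.160 and 0.169 CPM), below the detection floor of 3 counts per library, and the libraries at 0.1 µg/kg held 3.63, 6.60 and 14.6 CPM. The treated libraries did not overlap with vehicle, though they differed about 4-fold among themselves. With 323 counts at 0.1 µg/kg against 6 in vehicle over the groups, the ratio was 52.5, with a 95% exact interval of 23.9 to 144 that covers counting error only (edgeR adjusted p = 0.00216).

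The third largest rise, an ID outside the naming rule and described after its values were seen, held 1.78, 1.69 and 1.52 CPM in vehicle; at 0.1 µg/kg it held 45.8, 75.9 and 116 CPM. Its log2 fold change was 5.57 (SE 0.431; edgeR adjusted p = 1.67e-07). Another such ID took more counts than any other rise. It held 1561, 866 and 844 CPM in vehicle and 8374, 8663 and 7362 CPM at 0.1 µg/kg, again with no overlap (edgeR adjusted p = 1.02e-06; log2 fold change 2.90 with SE 0.254).

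This abundant ID and ENSRNOG00000019500 made up most of the counts that the rises gained. Together these 2 genes accounted for 0.108% ± 0.0428 of vehicle gene counts, and for 1.12% ± 0.0782 of those at 0.1 µg/kg (SD, n = 3). The other 107 rises went from 0.185% ± 0.0225 to 0.361% ± 0.020 (SD, n = 3).

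The falls were small where they were even across libraries. ENSRNOG00000026239 held 21.1, 18.6 and 20.5 CPM in vehicle and 10.2, 12.2 and 10.9 CPM at 0.1 µg/kg, so the groups did not overlap. Its log2 fold change was -0.86 (SE 0.159; edgeR adjusted p = 0.0149). The call was lost without vehicle replicate 2 (adjusted p = 0.0532), without 0.1 µg/kg replicate 1 (0.0687) or replicate 3 (0.0543), and when just these 2 groups were fitted (0.0586).

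ENSRNOG00000014900 held 43.8, 79.8 and 52.8 CPM in vehicle and 30.1, 34.2 and 36.3 CPM at 0.1 µg/kg. The groups did not overlap, but vehicle replicate 2 stood well above the other vehicle libraries. The log2 fold change was -0.81 (SE 0.193; edgeR adjusted p = 0.048) with all libraries and -0.50 without vehicle replicate 2 (adjusted p = 0.318). The call was also lost without each of the 0.1 µg/kg libraries (adjusted p = 0.166, 0.129 and 0.0955 for replicates 1, 2 and 3) and when just these 2 groups were fitted (adjusted p = 0.19). Of the other falls, 3 had log2 fold changes of -0.60 to -0.67. The remaining one was the fall of at least 2-fold, and it rested on 2 of the 3 vehicle libraries: these held 203 and 556 counts, the third vehicle library held 0, and the libraries at 0.1 µg/kg held 0, 0 and 1.

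**Figure D2:**
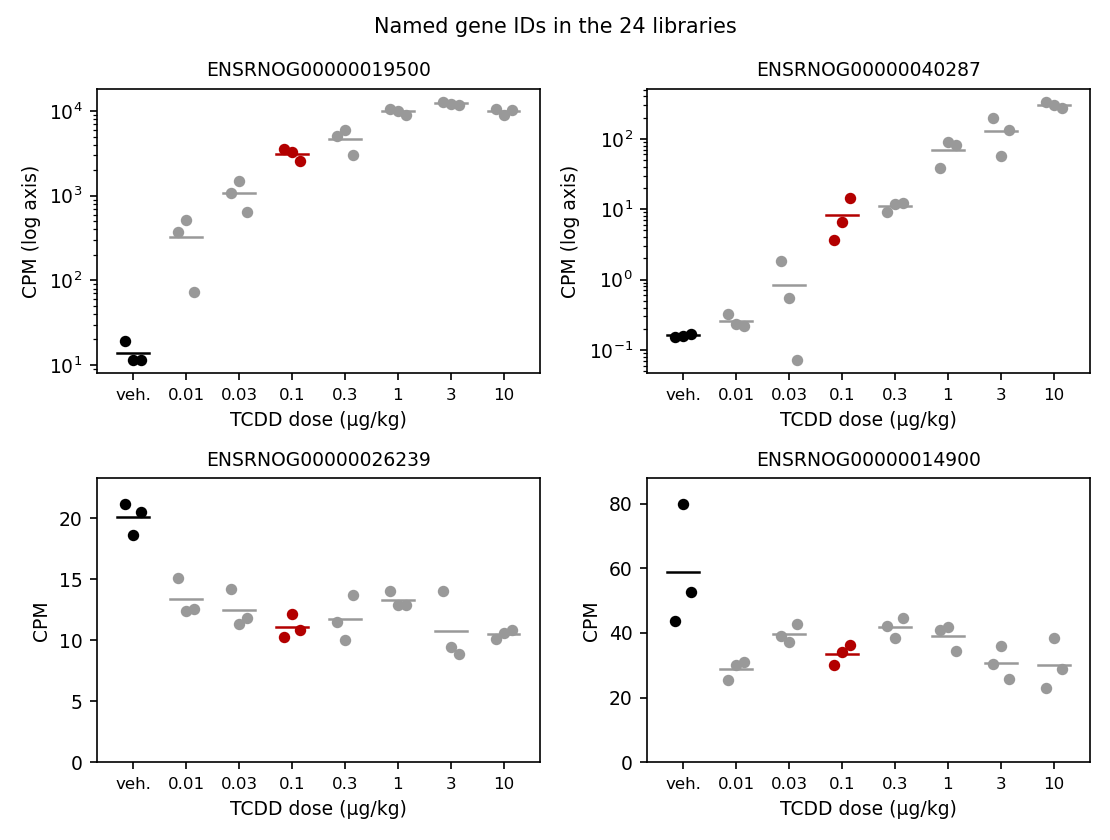
CPM of the 4 named IDs in each library (points) by dose, with the group mean as a line; vehicle is black and 0.1 µg/kg red, and the upper panels have log axes. ENSRNOG00000019500 averages 14.0 CPM in vehicle and 3128 CPM at 0.1 µg/kg, with higher means above that dose, whereas ENSRNOG00000026239 lies at or below 15.1 CPM in every treated library.

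How many genes were called depended strongly on single libraries. The count of 115 genes (0.92% of those tested) was 46 without vehicle replicate 1, 9 without vehicle replicate 2 and 149 without vehicle replicate 3. It was 30, 28 and 37 without replicates 1, 2 and 3 at 0.1 µg/kg. These calls were not all among the 115 genes. In the same order, 31, 9 and 84 were for the vehicle omissions, and 29, 26 and 33 for those at 0.1 µg/kg. DESeq2 called 313 genes (276 rises and 37 falls), which held 114 of the 115. A fit of the 2 groups alone called 41, of which 27 were among the 115. Falls were the less settled part: 6 were called with all libraries, 18 under a replicate block, 37 by DESeq2 and 0 in the fit of the 2 groups alone, and 0 to 10 when 1 library was left out. Rises outnumbered falls in each of these fits; their share was lowest, at 78.3%, without vehicle replicate 1, and 36 rises and 10 falls were called there.

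**Figure D3:**
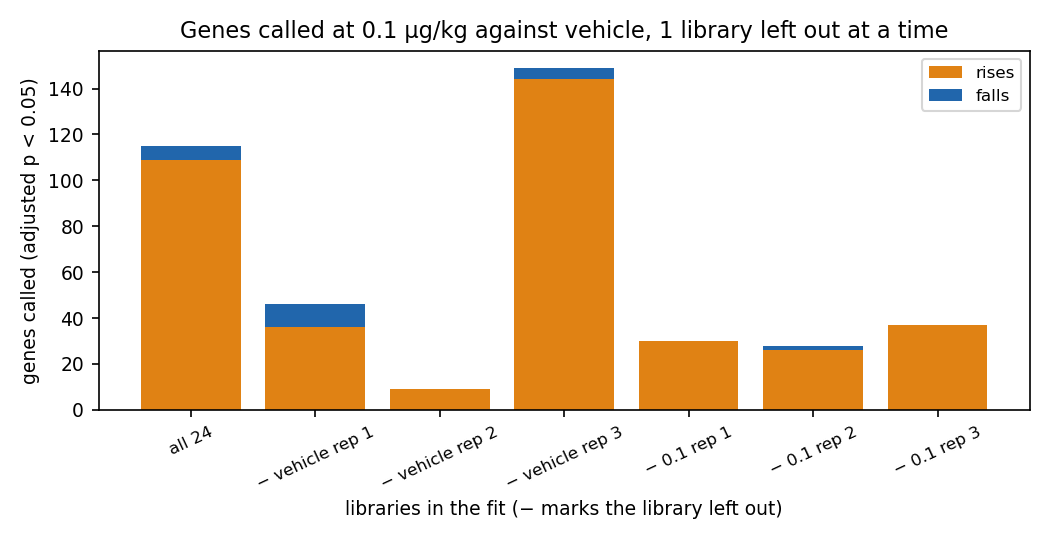
Number of genes called at 0.1 µg/kg against vehicle with all 24 libraries in the fit and with 1 library of the 2 groups left out at a time; rises are orange and falls blue, stacked from 0. The bars range from 9 genes without vehicle replicate 2 to 149 without vehicle replicate 3.

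Only 9 genes were called in the full fit and in each of the 6 fits that left out a library, and all 9 were rises. They include ENSRNOG00000019500, ENSRNOG00000040287, the third largest rise and the abundant ID described above. Their log2 fold changes ran from 0.80 to 7.80, with 7 of at least 2-fold, so they were not simply the genes with the largest changes. DESeq2 called all 9 and the fit of the 2 groups alone called 5. The fit without vehicle replicate 2 called just these 9 genes, so it alone set their number. With that fit left aside, 18 of the 115 genes were called in every other omission. Another 21 of the 115 genes were called in none of the 6 omissions.

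The libraries at 10 and 0.01 µg/kg took no part in choosing these genes, apart from the low-count filter and the estimate of spread. Both used all libraries, so a gene with few counts in the 6 libraries compared could pass the filter through other doses. The 10 µg/kg libraries stand apart in their alignments, however: 29.3% to 35.0% were not unique, against 22.4% to 25.8% at 0.01 µg/kg, and the part of this in the values below was not tested. Read there, the rises lay towards the higher dose. Of the 109 rises, 54 (49.5%) were higher at 10 than at 0.01 µg/kg, where 12% of all genes tested were, and 4 (3.67%) were lower, where 12.2% of all genes were. The log2 fold change was positive for 95 of the 109, with a median of 0.60 against -0.01 over all genes tested. All 9 genes that no omission removed were higher at 10 µg/kg, with log2 fold changes of 0.31 to 10.14, and so were 45 of the other 100 rises (45%). The share of 49.5% was 37.6% without 0.01 µg/kg replicate 1, where 8.06% of all genes tested were higher. It was 37.5% without replicate 3 of that dose (10.3% of all genes). Without vehicle replicate 2 it was 100% of 9 rises (12.2% of all genes). With no low-count filter it was 49.1%, where 7.92% of all genes were higher.

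The same reading was made with 3 against 0.01 µg/kg, a comparison added after the data were seen, in which 21.0% to 22.8% of alignments at 3 µg/kg were not unique. Of the 109 rises, 33 (30.3%) were higher at 3 than at 0.01 µg/kg, where 3.55% of all genes tested were, and 1 (0.917%) was lower, where 2.43% of all genes were (5.99% were called in either direction). The log2 fold change was positive for 101 rises, with a median of 0.58 against -0.01 over all genes tested. Of the 9 genes that no omission removed, 8 were higher at 3 µg/kg. The share called was thus smaller than with 10 µg/kg, among the rises and among all genes, while the median of the rises was 0.58 here and 0.60 there. Of the 6 falls, 1 was lower and 0 were higher.

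A smaller difference in dose gave far fewer calls. Between 0.3 and 0.01 µg/kg, 11 genes were higher and 1 was lower (0.088% and 0.008% of the genes tested). Of the 109 rises, 6 (5.50%) were among those 11 genes, or 54.5% of them, and 103 were not called. The log2 fold change was positive for 104 rises (95.4%, median 0.50), against 48.6% of all genes tested (median -0.01). The 12 calls in this comparison were 6 without 0.01 µg/kg replicate 3, 6 without 0.3 µg/kg replicate 2 and 31 without 0.3 µg/kg replicate 3. All 3 of these comparisons share the 0.01 µg/kg libraries, which also received TCDD. A gene that had already changed at 0.01 µg/kg and then stayed level could not be called in them.

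**Figure D4:**
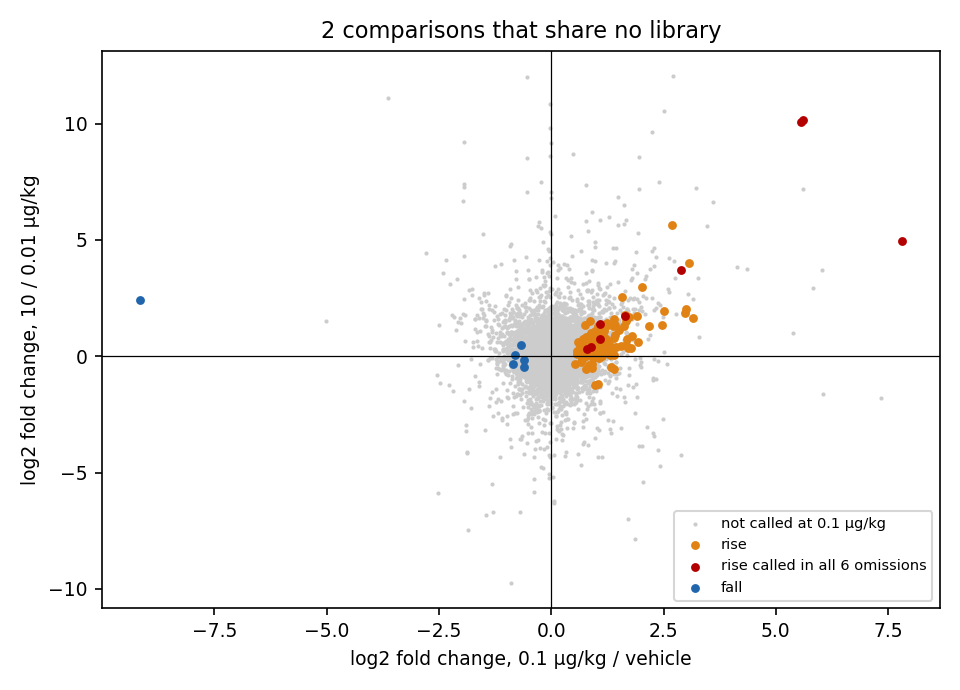
Each point is a gene, with its log2 fold change at 0.1 µg/kg against vehicle on the x axis and at 10 against 0.01 µg/kg, from other libraries, on the y axis. Rises at 0.1 µg/kg are orange or, where called in all 6 omissions, red, and 95 of 109 lie above 0 on the y axis; the 6 falls (blue) lie on both sides of it.

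The size of the difference between 10 and 0.01 µg/kg varied among the rises. For 6 of the 54 that were higher at 10 µg/kg it was at least 8-fold. Among all genes tested, it was at least 8-fold for 135 of the 1503 that were higher. The 51 that were not called had a median log2 fold change of 0.29 with a median standard error of 0.216, so differences of that size were not resolved. Of these 51, 41 had a positive value, where 49.1% of all genes tested did. Levels at 10 are not set against those at 0.1 µg/kg here, since the libraries at 0.1 µg/kg chose the genes.

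ENSRNOG00000019500 had mean levels of 323 ± 229 CPM at 0.01, 1067 ± 424 CPM at 0.03, 4672 ± 1508 CPM at 0.3 and 9937 ± 734 CPM at 10 µg/kg (SD, n = 3). Its level at 0.1 µg/kg thus lay below the highest levels of the series, and all 18 libraries of the other doses lay above the highest vehicle library, whose low values helped to choose the ID. For 10 against 0.01 µg/kg its log2 fold change was 4.94 (SE 0.502; edgeR adjusted p = 5.78e-07).

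ENSRNOG00000040287 stood at 0.260 ± 0.057 CPM at 0.01 and 0.829 ± 0.927 CPM at 0.03 µg/kg, then at 11.1 ± 1.77 CPM at 0.3, 69.5 ± 27.1 CPM at 1 and 302 ± 29.1 CPM at 10 µg/kg (SD, n = 3). At 0.03 µg/kg its libraries held 28, 8 and 1 counts, the last of them below vehicle. The dose of 0.1 µg/kg was the lowest at which all 3 libraries lay well clear of the detection floor.

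The named falls varied less from dose to dose. ENSRNOG00000026239 averaged 13.3 ± 1.5 CPM at 0.01, 12.5 ± 1.56 CPM at 0.03, 11.1 ± 0.99 CPM at 0.1 and 10.5 ± 0.356 CPM at 10 µg/kg (SD, n = 3), and all 18 libraries of the other doses lay below the lowest vehicle library. For 10 against 0.01 µg/kg its log2 fold change was -0.34 and missed the threshold (SE 0.158; edgeR adjusted p = 0.125). ENSRNOG00000014900 averaged 28.8 ± 2.91 CPM at 0.01 µg/kg and 30.1 ± 7.73 CPM at 10 µg/kg (SD, n = 3), with a log2 fold change between them of 0.07 (SE 0.193; edgeR adjusted p = 0.836). Neither named fall was thus called for 10 against 0.01 µg/kg. Both of those groups received TCDD, so a gene already lower at 0.01 µg/kg and level from there on could not be called. The reading therefore cannot decide whether these falls hold outside the libraries that chose them. Of the 6 falls, 1 was lower and 1 higher at 10 than at 0.01 µg/kg, near the 12.2% and 12% of all genes tested. For ENSRNOG00000014900, 17 of the 18 libraries of the other doses lay below the lowest vehicle library. Both IDs were chosen for being high in these 3 vehicle libraries, so their position against vehicle at other doses is a description of the choice.

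The levels of the called genes were then followed over all 24 libraries. The median log2 CPM of the 109 rises spanned 2.70 to 3.08 in the vehicle libraries. At 0.01 µg/kg it spanned 3.19 to 3.62, at 0.03 µg/kg 3.25 to 3.62, and at 0.1 µg/kg 3.98 to 4.04. The higher doses gave 3.70 to 4.27 at 0.3, 3.42 to 4.04 at 1, 4.13 to 4.48 at 3 and 4.09 to 4.32 at 10 µg/kg. All 21 treated libraries lay above the vehicle range, and for the falls all 21 lay below it. Since the genes were chosen for being low or high in these 3 vehicle libraries, and the reverse at 0.1 µg/kg, the positions of those 6 libraries are a description of the choice. The position of every other treated library against vehicle is tilted by the same choice, so these counts of 21 are no separate result. Between the 0.01 and 10 µg/kg groups, outside the choice, the ranges of the rises did not overlap. Those of the falls did (3.81 to 3.98 and 3.72 to 4.02). For the rises, the ranges at 0.3 and 3 µg/kg also lay above that at 0.01 µg/kg, while those at 0.03 and 1 µg/kg overlapped it. The climb was not even: the group mean of the rises was 4.07 at 0.3 and 3.83 at 1 µg/kg.

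**Figure D5:**
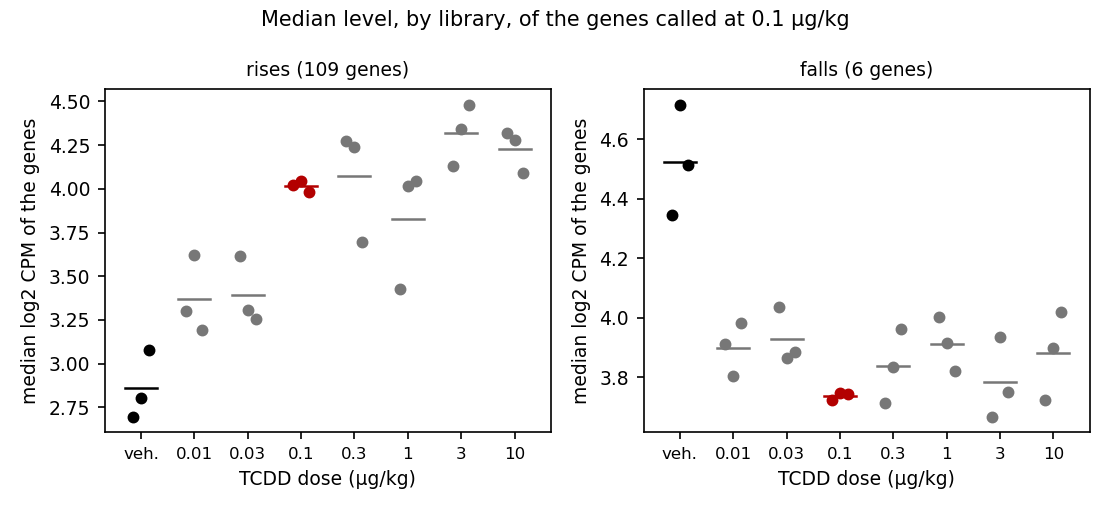
Median log2 CPM of the 109 rises (left) and the 6 falls (right) in each of the 24 libraries (points) by dose, with the group mean as a line; vehicle is black and 0.1 µg/kg red. For the rises the libraries at 10 µg/kg lie above those at 0.01 µg/kg, and for the falls the ranges at these doses overlap.

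The next lower dose was hard to separate from 0.1 µg/kg. In the test of 0.1 against 0.03 µg/kg, 1 gene was higher and 0 were lower (0.008% and 0% of the genes tested), with 742 genes at an unadjusted p below 0.05 and 12 genes called by DESeq2. The gene was the third largest rise, with 7.81 ± 4.40 CPM at 0.03 and 79.2 ± 35.1 CPM at 0.1 µg/kg (mean ± SD, n = 3; edgeR adjusted p = 0.000185; log2 fold change 3.34 with SE 0.371). ENSRNOG00000019500 was about 3-fold higher at 0.1 than at 0.03 µg/kg but did not pass the threshold (edgeR adjusted p = 0.572; log2 fold change 1.55 with SE 0.435), nor did ENSRNOG00000040287 (edgeR adjusted p = 0.117; log2 fold change 3.29 with SE 0.616). The count of 1 was 2 without 0.03 µg/kg replicate 1 or without 0.1 µg/kg replicate 1, and 0 when just these groups were fitted. All 109 rises had a positive log2 fold change here (median 0.59), but the libraries at 0.1 µg/kg are those that chose the genes, which tilts these values upwards.

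Against the next higher dose no gene passed. For 0.3 against 0.1 µg/kg the edgeR test passed 0 genes (0%) and DESeq2 passed 1, while 501 had an unadjusted p below 0.05 in edgeR. Without 0.1 µg/kg replicate 3, edgeR called 1. The median log2 fold change of the 109 rises was -0.05, and 47 of them (43.1%) were positive, against 0.002 and 50.2% over all genes tested. The rises were chosen for high values in the 0.1 µg/kg libraries, which tilts their values in this comparison downwards. The third largest rise had a log2 fold change of 0.87 (SE 0.334), and ENSRNOG00000019500 one of 0.58 (SE 0.426; edgeR adjusted p = 1.0). These values do not show that the doses acted alike.

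The genes of the high-dose response could also be read in the other direction, with the choice made by 10 against 0.01 µg/kg and the reading by 0.1 against vehicle. Of the 1503 genes that were higher at 10 µg/kg, 927 (61.7%) had a positive log2 fold change at 0.1 µg/kg, against 46.6% of all genes tested. Their median was 0.14, and it was 0.07 for the 597 that differed by under 2-fold between 10 and 0.01 µg/kg, 0.20 for the 771 of 2- to 8-fold and 0.48 for the 135 of at least 8-fold. Most of these genes were thus not called at 0.1 µg/kg: 54 of the 1503 (3.59%) rose there, and 6 of the 135 (4.44%), against 0.872% of all genes tested. The low-count filter used all libraries, so some of these genes may have passed it only through the higher doses.

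Genes that were lower at 10 than at 0.01 µg/kg showed less. Of 1529 such genes, 923 (60.4%) had a negative log2 fold change at 0.1 µg/kg, against 53.4% of all genes tested, with a median of -0.05. Without vehicle replicate 1 the share was 51.4%, against 51.1% of all genes. Among the 76 that were lower by at least 8-fold, 38 (50%) were negative at 0.1 µg/kg, and 1 of the 1529 (0.0654%) was called as a fall, near the 0.048% of all genes tested. With 3 in place of 10 µg/kg, 75.9% of the 444 genes higher at 3 µg/kg were positive at 0.1 µg/kg, and 66.4% of the 304 lower ones were negative. For the genes higher at 10 µg/kg the share with a positive value was 58.3% to 66.8% in every omission of a library of these 4 groups.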

How the data were processed

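Liver RNA of 24 rats was sequenced, and the 6 libraries at 0.1 µg/kg and vehicle were compared. The authors deposited whole-number counts per Ensembl gene ID, 1 table per library, not normalised. Per the labels' protocols, the library kit was Illumina's TruSeq RNA. The tools, per the submitters' processing notes, included TopHat 1.4.1, HTSeq 0.6.1 and DESeq, with no settings. Build, annotation and strand setting are not given in the sources used here, so overlapping, antisense and near-identical genes are uncertain. The 5 HTSeq summary rows (38.8% to 41.1% of the totals of the 6 libraries) were left out.

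The analysis used edgeR 4.0.16 under R 4.3.3, with filterByExpr over all 8 groups (12496 of 18198 IDs with a count) and TMM factors of 0.922 to 1.03. A quasi-likelihood model of all 8 groups was fitted (16 residual degrees of freedom, biological coefficient of variation 22.3%). Contrasts were tested with glmQLFTest and adjusted by Benjamini-Hochberg over all genes; calls were at an adjusted p below 0.05. CPM used TMM-scaled totals, and log2 CPM a prior count of 2. The standard error is the log2 fold change divided by the root of F. A floor of 3 counts was 0.225 to 0.254 CPM, and beyond it each group mean rests on 3 libraries. The p-values set a difference between groups against a spread between replicates that was estimated from all 8 groups. For 0.1 µg/kg against vehicle, 115 genes were called in this way. When just the 2 groups compared were fitted, 41 genes were called, with 0 falls. Replicates differed beyond sampling noise (chi-square per degree of freedom 22.2 to 53.1), so none was merged.

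The named IDs are the 2 largest rises and 2 largest falls among calls without overlap whose higher group averaged 5 CPM or more. The symbol parts of the rule and the gene lists could not be applied, since 0 of 47357 RefSeq rows held an Ensembl ID. The comparison, rules and lists were chosen with earlier results of these data known. On simulated counts for 12496 genes, 51 of 100 changes of 2-fold and 94 of 100 of 4-fold were called for 0.1 µg/kg against vehicle, with 11 false among 156 calls. The simulation used the spreads of the fit itself, changed only genes averaging at least 1 CPM and set no library apart from its group. Its rates may therefore not hold for these data, where single libraries moved the number of calls. Alternatives were RLE scaling, DESeq2 1.42.0, other filters, a 2-group fit, a replicate block, leaving out each library and, added after the data were seen, reading 3 in place of 10 µg/kg.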

Additional observations from a re-analysis of the deposited data

How the results depend on the processing

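RLE scaling, no low-count filter and a filter of 1 CPM in 3 libraries left every count within 1.5 times, and every share within the 95% interval, of its reported value. Leaving out 1 library gave 9 to 149 calls at 0.1 µg/kg against vehicle, 1 to 2 against 0.03 µg/kg, 0 to 1 for 0.3 against 0.1 µg/kg, 6 to 31 for 0.3 against 0.01 µg/kg and 2054 to 2736 (from 3032) for 10 against 0.01 µg/kg. In these omissions the share of rises called higher for 10 against 0.01 µg/kg was 37.5% to 100%, where 8.06% to 12.3% of all genes tested were. The share of positive values at 0.1 µg/kg among genes higher at 10 µg/kg was 58.3% to 66.8%, and that of negative values among the lower genes 51.4% to 65.3%. A fit of the 2 groups alone gave 41, 0 and 4 calls for 0.1 against vehicle, 0.1 against 0.03 and 0.3 against 0.01 µg/kg. Its share of rises called higher was 61.0%, where 10.4% of all genes tested were. DESeq2 gave 313 calls (276 rises and 37 falls) for 0.1 µg/kg against vehicle, 12 against 0.03 µg/kg, 1 for 0.3 against 0.1 µg/kg and 53 for 0.3 against 0.01 µg/kg. With the 3 in place of the 10 µg/kg libraries, chosen after seeing the data, the shares of rises called higher, of positive and of negative values were 30.3%, 75.9% and 66.4%. The first of these stood beside 3.55% of all genes tested. The cause of these shifts was not tested.

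With the replicate number as a block, 183 genes were called at 0.1 µg/kg against vehicle (165 rises and 18 falls), among them all 115. Deviations of same-numbered libraries correlated across genes at 0.10, -0.15 and 0.21, and 3 of the 6 libraries correlated best with their own number, so the numbers were not taken to pair them. The block left every other count within 1.5 times. Both named rises were called in each setting, and the value of no named ID changed sign. With 3 libraries a group 51 of 100 simulated 2-fold changes were called, so genes not called may have changed.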
